A study of Caenorhabditis elegans with 5 samples.

Results

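One comparison of a nematode series is described: the array of Caenorhabditis elegans exposed to formaldehyde for 24 h against the array of animals that were not exposed. These are 2 of the 5 Affymetrix arrays of the series, chosen by their titles, with 1 array per group. The other arrays hold animals exposed for 24 h to benzene, to toluene, or to benzene, toluene and formaldehyde together (the mix). All groups were wild-type hermaphrodites, young adults aged 3 days from a synchronised culture. The exposures took place at 20 °C in a salt medium (K-medium) without food, and 300 ng of total RNA was labelled from the 3' end of transcripts. The sources used here give neither the concentrations nor the time, medium and food of the control. The comparison covered 17118 genes, each represented by its probe set of highest mean intensity, and 10271 of them passed a filter on level.

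Formaldehyde is a small reactive aldehyde that links proteins to DNA and to each other. Cells also make it themselves, when methyl groups are removed and when folates break down. In animals it is cleared mainly by a glutathione-dependent alcohol dehydrogenase, whose product feeds the one-carbon pool, and by aldehyde dehydrogenases, while crosslinks in DNA are removed by the Fanconi anaemia pathway, excision repair and proteases.

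Every difference given is log2(intensity + 16) on the formaldehyde array minus the same on the control array, and a gene was called higher or lower when it was 2-fold away, a rule of size. With 1 array per group there was no replicate, so no error or test could be had and no difference has a replicate check. Sets of 5 intensities stand in the order control, benzene, toluene, formaldehyde and mix. RNA came from whole animals, so fewer cells of a type and less RNA per cell cannot be told apart. The labelled stage and sex were visible in the markers. The adult cuticle collagen gene col-19 had intensities of 3536, 4525, 4376, 5688 and 5082. The yolk protein gene vit-2 had 8865, 8677, 8589, 6958 and 7366, and all 23 measured genes of the major sperm proteins passed the level filter. Of the 5 yolk genes measured, vit-1 was the one 2-fold away, with 1775, 5281, 1966, 7578 and 8124 (2.08). The ratio of 3' to 5' probe sets, a sign of RNA length, was 4.94 in control and 3.31 after formaldehyde for actin and 3.03 and 2.76 for glyceraldehyde phosphate dehydrogenase, with 31.3 and 34.6 for ubiquitin and 19.5 and 17.2 for catalase. Its part in the results was not tested.

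At 2-fold, 467 of the 10271 genes past the filter (4.55%) were higher after formaldehyde and 233 (2.27%) were lower. Over all 17118 genes it was 482 (2.82%) and 241 (1.41%), the background for the gene groups below. The median of all genes was -0.01, and 36.4% of genes lay above 0. The higher genes had a median intensity of 145 in control and 469 after formaldehyde. The lower genes went the other way, from a median of 396 to 127 (over 232 genes with a chromosome in the annotation). The choice of these genes fixes the direction of both shifts. All genes past the filter with a chromosome had medians of 355 in control and 351 after formaldehyde. With genes ordered by mean level in 5 equal bins, the share higher was 2.68% in the dimmest bin, 6.77%, 5.79% and 3.26% in the next and 4.24% in the brightest. The share lower was 1.75%, 3.60%, 3.80%, 1.41% and 0.779% in the same order.

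Of the 467 higher genes, 398 (85.2%) had intensities that rose in the order control, toluene, benzene and formaldehyde, and 137 of the 233 lower genes (58.8%) fell in it. The choice of these genes fixes the order of the formaldehyde and control arrays, so these shares have no background here. The benzene and toluene arrays enter the choice only through the mean level over all arrays, which sets the filter and the probe set. Benzene stood above toluene in 442 of the higher genes (94.7%) and in 5125 (49.9%) of all genes past the filter, and below it in 188 of the lower genes (80.7%) and 42.4% of all. The median difference of the higher genes was 0.39 after toluene, 0.71 after benzene, 1.49 after formaldehyde and 1.41 after the mix. For the lower genes it was -0.26, -0.42, -1.29 and -1.29. On the benzene array 150 of the 233 lower genes stood within 0.5 of control, while 96 of the 467 higher genes did. Of all genes past the filter 9635 of 10271 did, a larger share than in either set. All of these differences share the control array, and the higher and lower genes were chosen on the formaldehyde array. Against the control, benzene and toluene arrays at once, 111 genes (1.08%) stood 2-fold above all 3 after formaldehyde and 105 (1.02%) stood 2-fold below all 3. The lower side therefore held nearly as many genes that set the formaldehyde array apart from every array without the compound as the higher side did. No gene was 2-fold away in opposite directions after formaldehyde and another exposure.

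**Figure D1:**
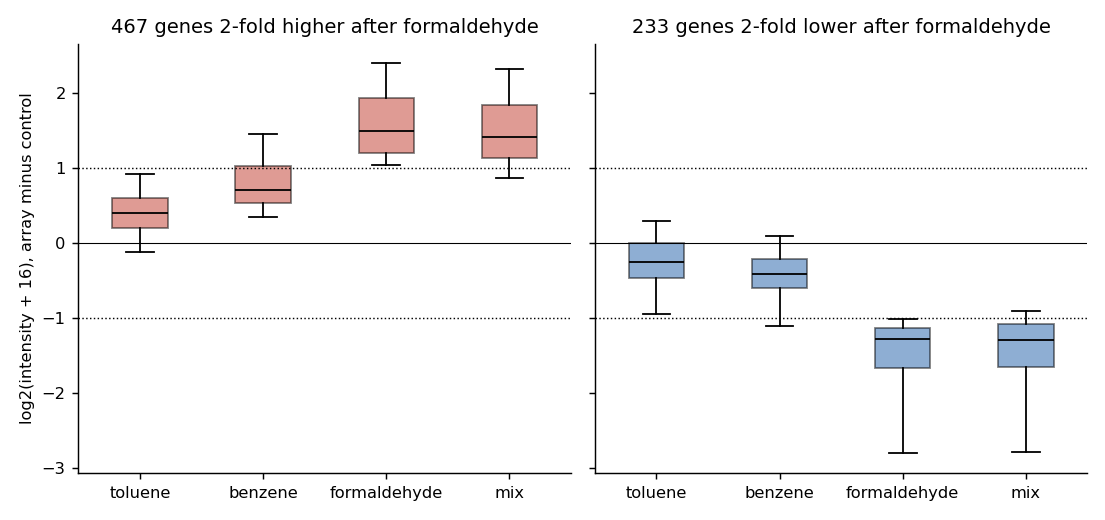
Differences from control (log2 of intensity + 16, array minus control) of the 467 higher and 233 lower genes on the toluene, benzene, formaldehyde and mix arrays. Boxes span the quartiles, the line is the median and whiskers reach the 5th and 95th percentiles of genes; dotted lines mark 2-fold. The higher genes have a median of 0.71 after benzene and the lower genes of -0.42, and both sets stand at similar values after formaldehyde and the mix.

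By chromosome (RefSeq, assembly WBcel235), the share of higher genes past the filter was largest on IV (106 of 1695, 6.25%) and V (116 of 1882, 6.16%), followed by II (87 of 1791, 4.86%). It was 3.62% on I (64 of 1770), 3.57% on X (51 of 1427) and 2.57% on III (43 of 1674). Lower genes were most frequent on X, where 53 of 1427 (3.71%) were lower, against 179 of 8812 (2.03%) on the autosomes. X was the chromosome with more lower than higher genes. Genes for sperm are rare on X in this species. Without the sperm gene classes described below, 3.44% of X genes and 4.202% of autosomal genes were higher.

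Enzymes of amino acid and short-chain fatty acid breakdown were among the clearest groups on the higher side. Of 14 genes for the breakdown of propionate, a product of branched amino acids and odd-chain fat, 5 stood higher and 0 lower, and the median was 0.23. C. elegans can burn propionate through a vitamin B12-dependent route or through a shunt that is used when B12 is short, and 4 of the 5 shunt genes were higher, acdh-1, ech-6, hach-1 and hphd-1. None of the 6 genes listed for the B12-dependent route was 2-fold away, with values from -0.06 to 0.42. The acyl-CoA dehydrogenase gene acdh-1 had intensities of 3141, 6502, 5278, 9086 and 8378 (1.53). The hydratase gene ech-6 had 2254, 3720, 2854, 5385 and 5502 (1.25), and the hydrolase gene hach-1 had 714, 1351, 998, 2088 and 2185 (1.53). For all 3 the intensities climbed from control through toluene and benzene to formaldehyde. hphd-1, an oxidoreductase that removes the hydroxyacid made in the shunt, stood at 2.59 on the probe set used and at 1.96 on its other one. The dehydrogenase gene alh-8, the remaining shunt gene, had intensities of 3759, 4015, 4084, 3731 and 3683 (-0.01). The other higher gene of the list was nhr-114, a nuclear hormone receptor linked to the tryptophan, methionine and B12 supply, with 85.8, 136, 87.7, 253 and 287 (1.40). It was 1 of 3 nuclear receptors in the list, whose median was -0.18 and lowest value -0.39. For mce-1, the epimerase gene of the B12-dependent route, the control array was the lowest and the other 4 lay together, at 355, 481, 477, 479 and 477 (0.42).

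Of 30 genes for folate, methionine and one-carbon metabolism, 4 stood higher and 0 lower. The median was 0.27, and 22 lay above 0. The folate transporter gene folt-2 had intensities of 174, 534, 219, 1253 and 1112. The toluene array was near the control for it and the formaldehyde array was the highest of the 5. The methyltransferase gene anmt-2 had 91.5, 144, 113.8, 228 and 219 (1.18), and sams-5, which encodes an S-adenosylmethionine synthetase, had 136, 196, 168, 312 and 287 (1.11). The purine synthesis gene atic-1, whose enzyme takes a formyl group from folate, stood at 1.04 on the probe set used and at 0.10 on another that was under the level filter. pmt-2, a methyltransferase for phosphatidylcholine, had 3057, 4528, 3714, 5829 and 5768 and stayed within 2-fold (0.93). gcsh-1, of the glycine cleavage system, had 115, 128, 73.2, 229 and 278 (0.91), with the toluene array below control.

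Tyrosine, tryptophan and proline breakdown had 4 of 22 genes higher and 0 lower. Its median of 0.43 was next to the highest of the 52 lists, and 18 of the 22 genes lay above 0. Of the 4, haao-1, kynu-1 and kmo-1 belong to the kynurenine pathway of tryptophan. haao-1 had 29.2, 45.6, 37.1, 112.5 and 92.8 (1.51), kynu-1 190.4, 319, 267, 482 and 520.2 (1.27) and kmo-1 129.4, 227, 253, 302 and 337 (1.13). The tyrosine aminotransferase gene tatn-1 had 441, 695, 624, 1014 and 1055 (1.17). In each of the 4 the formaldehyde array lay above control, benzene and toluene. hpd-1, the next enzyme after tatn-1 in tyrosine breakdown, stood at 0.80, and bcat-1, for branched amino acids, at 0.84.

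Central carbon metabolism moved less. Of 30 glycolysis, gluconeogenesis and trehalose genes 0 were 2-fold away (median 0.12), and of 31 genes of the citrate and glyoxylate cycles 1 was, the isocitrate dehydrogenase subunit gene idhg-2 (1.12). The 10 pentose phosphate and NADPH genes had 0 called and ran from -0.87 for the thioredoxin reductase gene trxr-1 to 0.55 for the transaldolase gene tald-1. A second probe set of trxr-1 stood at -0.14. Among 38 genes for sphingolipids and phospholipids 4 stood higher and 0 lower, and the median was 0.02. The 4 were elo-5 (1.68), acs-1 (1.35), sptl-2 (1.196) and elo-6 (1.07). elo-5, elo-6 and acs-1 act in making monomethyl branched-chain fatty acids, and sptl-2 encodes a subunit of serine palmitoyltransferase, which starts sphingolipid synthesis. elo-5 had intensities of 910.4, 1526, 980.4, 2946 and 3243 and elo-6 of 1069, 1271, 884, 2271 and 2683, so toluene was near control for the first and below it for the second. Of 16 sterol and ascaroside genes 1 was higher, the thiolase gene daf-22 that shortens pheromone side chains (1.14).

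**Figure D2:**
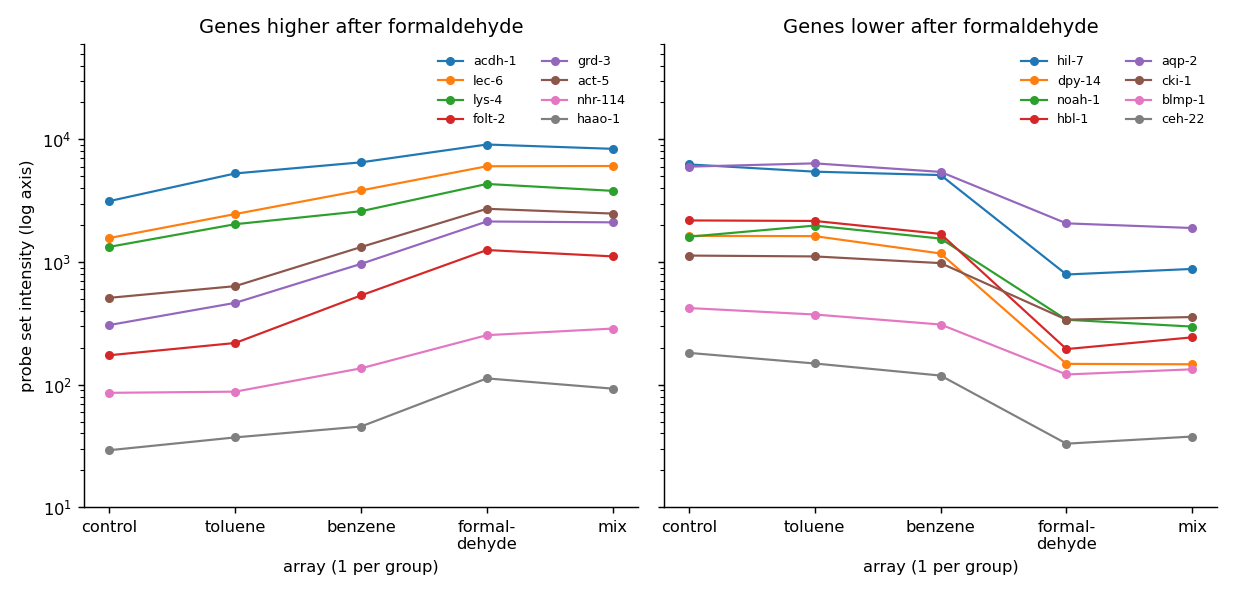
Probe set intensity (log axis) on each of the 5 arrays, 1 per group, for 8 genes higher and 8 genes lower after formaldehyde. The higher genes climb from control through toluene and benzene, as acdh-1 from 3141 to 9086, while several lower genes stay near control until formaldehyde, as hbl-1 from 2184 to 195.

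Gene classes, the letters before the hyphen of a gene name, gave a view without chosen lists. Of 165 classes with at least 10 measured genes, 98 had no member 2-fold away. In 10 classes at least 20% of members were 2-fold away in one direction. In 9 of these the direction was higher: the major sperm proteins (msp), lysozymes (lys), groundhog-type hedgehog-related genes (grd), galectins (lec), collagens (col), heme-responsive genes (hrg), the nematode-specific peptides nspg, aspartyl proteases (asp) and enoyl-CoA hydratases (ech). The exception was the aquaporins (aqp). When probe sets that can bind several transcripts (names with s or x) were left out, the number of such classes was 2 in place of 10. The rule of at least 10 measured genes was kept for the remaining probe sets, so a class could leave the count on size alone. On the remaining probe sets 4 grd, 3 lec, 14 col, 2 asp, 2 nspg, 1 lys, 1 hrg and 1 ech gene were still higher. All 23 msp genes rest on s or x probe sets, so the msp value is that of probe sets which may bind several transcripts.

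**Figure D3:**
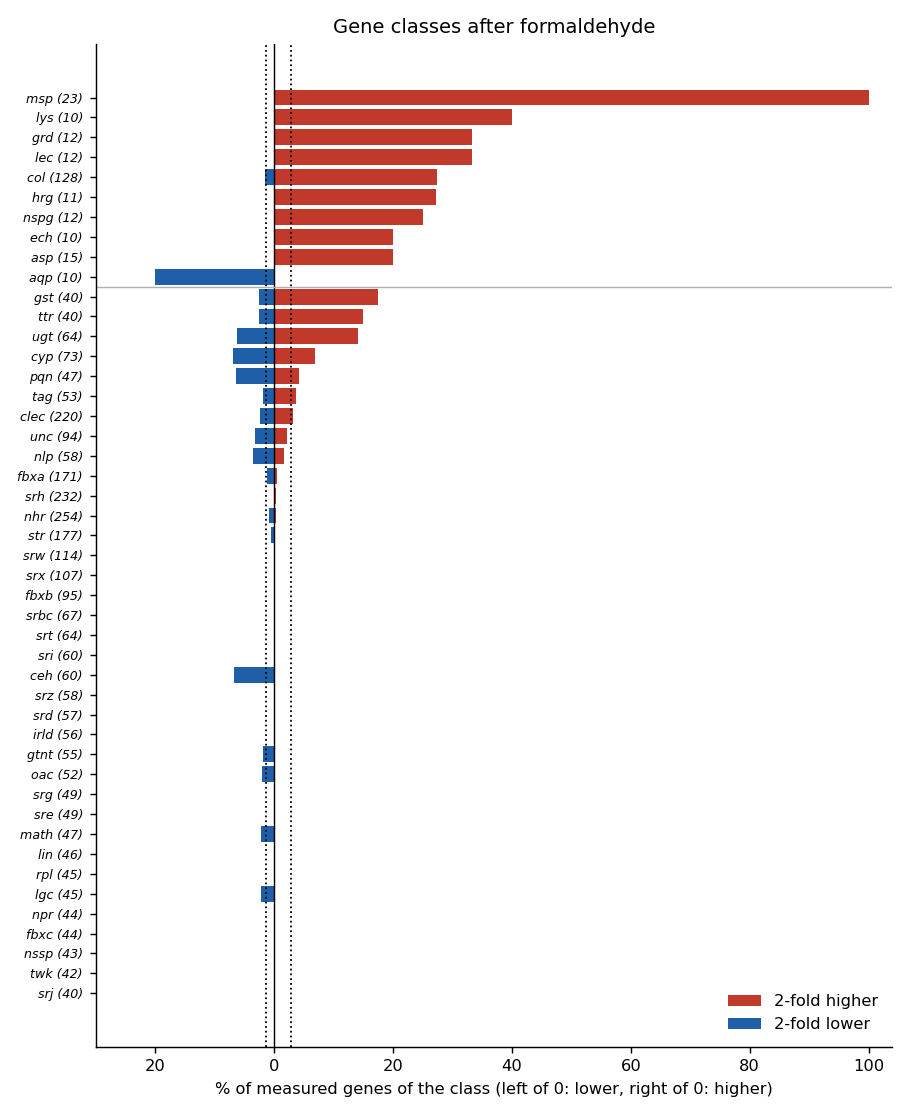
Share of measured genes of each class that were 2-fold higher (red, right of 0) or 2-fold lower (blue, left of 0) after formaldehyde, with the number measured in brackets. The 10 classes above the grey line had at least 20% one way, those below it are the other classes of 40 or more genes, and dotted lines mark the shares over all genes (2.82% and 1.41%).

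Several of these classes encode secreted proteins of defence and digestion. Lysozymes cut bacterial cell walls, and 4 of 10 lys genes were higher and 0 lower, with 9 above 0. lys-4 had intensities of 1330, 2596, 2035, 4332 and 3806 (1.69), lys-1 627, 972, 760.3, 1659 and 1630 (1.38), lys-2 293, 499.6, 325, 724 and 720.1 (1.26) and lys-7 230.0, 417, 284, 660.5 and 619 (1.46). In all 4 the arrays ranked control, toluene, benzene, then the mix and formaldehyde. Galectins bind sugars that hold galactose, and 4 of 12 lec genes were higher, 0 lower, 11 above 0: lec-6 (1.93), lec-10 (1.68), lec-9 (1.33) and lec-8 (1.24). lec-6 had 1570, 3837, 2462, 6041 and 6067, while lec-10 had 681, 1245, 688, 2224 and 2075 and lec-9 408, 624, 361, 1047 and 1025. For lec-10 the toluene array was near control and for lec-9 below it, unlike lec-6. The C-type lectins, a larger lectin class, had 7 of 220 higher (3.18%) and 5 lower (2.27%), near the shares over all genes.

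Cathepsin-type proteases of the gut were higher in 4 of 8 cpr genes and lower in 1. This class is under the size of 10 and was chosen after its values were seen. cpr-4 had 681, 1193, 979, 2244 and 1924 (1.70), cpr-5 772, 1576, 1034, 2431 and 2228 (1.64), cpr-9 2422, 5387, 2994, 6668 and 6528 (1.46) and cpr-1 1964, 3029, 2853, 4017 and 3557 (1.03). cpr-2 went opposite to its relatives, with 588, 271, 292, 101.1 and 102 (-2.37). Among aspartyl proteases 3 of 15 were higher, asp-13 (1.31), asp-12 (1.25) and asp-8 (1.23), and the bright gene asp-6 stood at -0.66. Saposin-like genes, which include pore-forming antimicrobial proteins, were divided: spp-23 (1.95) and spp-4 (1.67) were higher, while spp-8 (-1.22), spp-1 (-1.22) and spp-31 (-1.06) were lower. A second probe set of spp-1 stood at -0.15.

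Lipid-binding proteins and infection-response genes, also chosen after their values were seen, had 4 of 9 and 3 of 8 members higher and 0 lower. lbp-2 had 1338, 2471, 2174, 3883 and 3904, lbp-6 1761, 2902, 1779, 4768 and 4747 and lbp-5 411, 609, 464, 875 and 863. lbp-8 was dimmer, with 21, 33.2, 13.6, 79.8 and 90.2, and did not pass the level filter. Of the infection-response genes, irg-4 had 839, 1856, 1146, 2792 and 2833 (1.72) and irg-5 293, 721, 501, 859 and 919 (1.503). Transthyretin-related proteins, small secreted proteins of nematodes, had 6 of 40 higher and 1 lower. ttr-31 had 45.5, 100.3, 81.5, 222 and 193 (1.95) and ttr-14 148, 335, 292, 545 and 500.4 (1.77), and ttr-23 was the lower one (-1.15).

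The intestinal list, with lumen and transcription genes of the gut, had the highest median of the 52 lists (0.44). Of its 26 genes 3 were higher, 2 lower and 19 above 0. act-5, the actin of the microvilli, had intensities of 511, 1325, 636, 2717 and 2484 (2.38), and ifc-1, an intermediate filament gene of the terminal web, 66, 101.3, 76.1, 159 and 180.5 (1.09). The ferritin gene ftn-1, which stores iron, went the other way. It had 2012, 2981, 2920, 830.2 and 675 (-1.26), higher than control after benzene and toluene and lower after formaldehyde and the mix. All 19 genes of the vacuolar ATPase, the proton pump of acid compartments, passed the filter. None was 2-fold away, but 18 lay above 0 (94.7%, against 36.4% of all genes), with a median of 0.33. The largest were vha-12 with 1225, 1579, 1205, 2150 and 1925 (0.80) and vha-10 with 1595, 2007, 1701, 2532 and 2139 (0.66).

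The aquaporins showed 2 of 10 genes lower and 0 higher. The water and glycerol channel gene aqp-2 had 5995, 5433, 6378, 2067 and 1894, with the arrays without formaldehyde between 5433 and 6378, and its 2 probe sets both stood at -1.53. aqp-1 had 1377, 1003, 1103, 561 and 472 (-1.27). aqp-7 pointed the other way within 2-fold (0.78).

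Genes next to each other on a chromosome were called together in 8 runs of at least 3 neighbouring measured genes, all higher and 0 lower. One run held gst-26, gst-27 and gst-28 on II, genes of glutathione S-transferases, with differences of 2.39, 1.605 and 1.04. Another held cyp-35A3, K09D9.1 and cyp-35A4 on V, where the uncharacterised gene between the cytochrome P450 genes had 126, 200.2, 115, 465 and 433 (1.76). On X, spig-20, the gene with the largest difference of all (3.17, 341, 1273, 687, 3194 and 2933), had C45B2.2 (1.28) and C45B2.8 (1.09) beside it. The other 5 runs held sperm genes. Among these, acdh-8, an acyl-CoA dehydrogenase gene on II with 84, 148, 132, 306 and 276 (1.69), lay beside msp-63 and msp-142. Neighbouring genes of one family have similar sequences, and a probe set may bind more than one of them. In the cyp-35A run 0 of the 3 genes rested on s or x probe sets. In the gst run and the X run it was 1, and in the runs of sperm genes 1 to 3.

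Hedgehog-related and heme-responsive genes included some of the largest differences. Nematode hedgehog-related proteins are secreted from the epidermis and other surface tissues. grd-3 had 306, 966, 465, 2141 and 2107 (2.74), grd-5 205, 563, 295, 1159 and 1254 (2.41), grd-10 92.7, 162, 96.1, 464 and 495 (2.14) and grd-14 106, 184, 153, 269 and 268 (1.22). These were 4 of the 5 grd genes past the level filter, while the other 8 of the 12 measured stayed within 2-fold, and toluene was near control for grd-10. Of 11 hrg genes 3 were higher: hrg-7 (2.35), which encodes a secreted protease-like protein that signals heme supply, hrg-11.2 (2.28) and hrg-11.3 (1.38). hrg-7 had 210.4, 500.3, 276, 1137 and 1280. The heme transporter gene hrg-1 stood at 0.52 and hrg-4 at 0.35, the latter under the level filter.

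Among collagens of the col class 35 of 128 were higher and 2 lower, 89.1% lay above 0 and the median was 0.58. col-98, on a probe set without s or x, had 849.6, 1751, 1027, 3783 and 3503 (2.13), and col-159 had 1797, 5362, 3454, 7867 and 6804 (2.12). col-74 went the other way on every exposed array, with 315, 83.7, 107, 51.3 and 43.3 (-2.30). With s and x probe sets left out, 14 col genes were higher. Near-identical collagens can share the probe sets left out.

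Many sperm genes were higher, among them all 23 msp genes, with a median of 2.22 on s and x probe sets. Besides msp, 10 further classes that hold sperm genes had 28 of 73 genes higher and 0 lower, with a median of 0.53. The remaining 45 stayed within 2-fold. Classes were taken whole by name, so not every member need be a sperm gene. The sperm-specific family ssp had 7 of 8 higher, with a median of 1.71, the nematode-specific peptides nspd 5 of 6 (2.03) and nsph 3 of 5 (1.21). The MSP domain genes msd-4 and msd-2 stood at 2.54 and 2.54. The spe genes, named for defects in sperm formation, had 2 of 29 higher and a median of 0.11. Without s and x probe sets 12 genes of these 10 classes were higher. ssp-16, on a probe set without s or x, had 95.6, 211, 184, 454 and 391.5 (2.08), and cyc-2.2, a cytochrome c gene, had 74.7, 189.5, 138, 456 and 424 (2.38). The Argonaute genes alg-3 and alg-4, which act during sperm formation, had 72.5, 98.7, 100.3, 185 and 146 (1.18) and 64.9, 87.2, 83.3, 186 and 155 (1.32). They were the 2 higher genes of 49 in small RNA pathways, and sago-1, a secondary Argonaute, was lower (-1.14). Another probe set of alg-4 past the level filter stood at 1.14, and one under the filter at -0.02.

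On the lower side the apical extracellular matrix stood out. Proteins of this matrix cover the epidermis of embryos and moulting larvae, beneath and before each new cuticle. Of 39 genes 9 were lower and 0 higher, and the median of -0.36 was the lowest of the 52 lists. noah-1, which encodes a zona pellucida domain protein of this sheath, had 1609, 1553, 1983, 338 and 298 (-2.197). acn-1, an enzyme-like protein needed for moulting, had 526, 338, 429, 100.7 and 80.2 (-2.21), and ptr-4, a patched-related membrane protein, 140.0, 81.9, 89, 36.9 and 48.06 (-1.56). fbn-1, which encodes a fibrillin-like protein, had 389.7, 375, 458, 89.6 and 89.1. For noah-1 and fbn-1 benzene was slightly below control and toluene above it, while acn-1 and ptr-4 were below control after both. cutl-16, a cuticlin-like gene, stood at -1.98, and the hatching protease gene hch-1 had 881, 728, 826, 116 and 95.6 (-2.76).

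Regulators of the epidermis and of developmental timing were lower beside them. Heterochronic genes, which set the order of larval stages, had 3 of 27 lower and 0 higher, with a median of -0.30. hbl-1, a zinc finger factor of early stages, had 2184, 1696, 2163, 195 and 243. The 3 arrays without formaldehyde lay between 1696 and 2184 and the arrays with it had 195 and 243. The other 2 genes also sit in the list of 28 epidermis and seam cell genes, of which 4 were lower and 2 higher. blmp-1, a zinc finger factor, had 422, 309, 373, 121 and 133 (-1.67), and the nuclear hormone receptor gene nhr-25 had 418, 410.4, 442, 197 and 188 (-1.03). The junction gene dlg-1 had 4981, 4099, 4538, 1706 and 1701 (-1.54) and the GATA factor gene elt-6 483, 342, 371, 197 and 196 (-1.23). mup-4, which anchors muscle through the epidermis, was higher, at 1.01 and 1.15 on its 2 probe sets.

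Embryonic and patterning genes had more lower than higher members, though few were called. Embryonic cell fate regulators had 1 of 47 lower (2.13%) and 0 higher, with a median of -0.10. That share was near the 1.41% of all genes. Of 42 embryonic morphogenesis genes 4 were lower and 2 higher, with a median of -0.27 and 5 genes above 0. plx-2, a plexin, had 154, 109, 113.8, 43.8 and 37.2 (-1.51), and sma-1, a spectrin, 1982, 1692, 1849, 940.3 and 884 (-1.06). Among 63 genes of Wnt, Notch, EGF and TGF-beta signalling 1 was lower (1.59%), also near the share of all genes. It was the Wnt receptor gene cfz-2, with 584, 435, 473, 145 and 164 (-1.90). Its second probe set stood at -1.302. Homeobox genes of the ceh class had 4 of 60 lower (6.67%) and 0 higher. ceh-22, a regulator of pharynx muscle and of the distal tip cell, had 182, 118.6, 149, 33 and 37.8 (-2.01), ceh-32 224, 202, 298, 84.4 and 93.8 (-1.26) and ceh-20 707, 631, 787, 299.5 and 310.4 (-1.197). Nuclear hormone receptors, the largest class measured, had 1 of 254 higher and 2 lower, under the background in both directions. All 3 measured syd genes were lower, a class chosen after its values were seen. The zinc finger gene syd-9 had 820.3, 571, 752, 121 and 127 (-2.61), while syd-1 (-1.43) and syd-2 (-1.12) act in building synapses.

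The cell cycle list had 1 of 65 genes away from control, the inhibitor gene cki-1, with 1129, 979.9, 1111, 339 and 356 (-1.69). Of 8 linker histone genes of the hil class, chosen after its values were seen, 2 were lower and 6 stayed within 2-fold. hil-7 had 6253, 5120, 5456, 791 and 879 and its 3 probe sets stood at -2.96, -2.92 and -2.56. hil-1 had 894, 1010, 1233, 419 and 431 (-1.06). Among the 40 lowest genes the neuropeptide-like gene nlp-39 had 195, 134, 176, 26.6 and 32.8 (-2.31), and pud-4, of a family named for its rise in a daf-2 mutant, had 118, 66.5, 65.5, 19.1 and 24.5 (-1.94).

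Many lower genes had a second probe set that did not follow the first. Of the 233 lower genes 116 had several probe sets, and in 88 of them another one passed the level filter. Every such probe set was 2-fold lower in 19 of the 88 genes (21.6%), and in 36 (40.9%) all others stood within 0.5 of control. For the 467 higher genes it was 51 genes, with 31 (60.8%) and 4 (7.84%). The other probe sets of the lower genes had a median of -0.64, where those used had -1.398. For the higher genes it was 1.17 and 1.42. In 3 lower and 6 higher genes another probe set had the opposite sign. The probe set used is the brighter one by rule. The others past the filter had a median intensity of 144 in control and 82.8 after formaldehyde for the lower genes. For the higher genes it was 126.5 and 295. Whether this level bears on the smaller falls was not tested. Lower genes with a smaller difference of the same sign on another probe set past the filter included blmp-1, at -1.67 and -0.14, cki-1, at -1.69 and -0.59, acn-1, at -2.21 and -0.46, syd-9, at -2.61 and -0.50, and dlg-1, at -1.54 and -0.45. Others were elt-6 (-0.22 on that probe set), ceh-32 (-0.22), ceh-20 (-0.38), ptr-4 (-0.44) and syd-1 (-0.48). So were sago-1 (-0.70), unc-6 (-0.43), ztf-11 (-0.25), dyf-7 (-0.24) and mls-2 (-0.35). The other probe sets of hbl-1 (-0.44), fbn-1 (-0.06), nhr-25 (-0.05) and ceh-22 (-0.60) were under the level filter, so those genes have no second measure here. The sources used here do not give where in a transcript each probe set lies, so it was not tested whether these are different transcripts or different ends of one. Every probe set was 2-fold lower for noah-1 (-1.41 on the other), lpr-3 (-1.03), hil-7, aqp-2 and cfz-2.

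**Figure D4:**
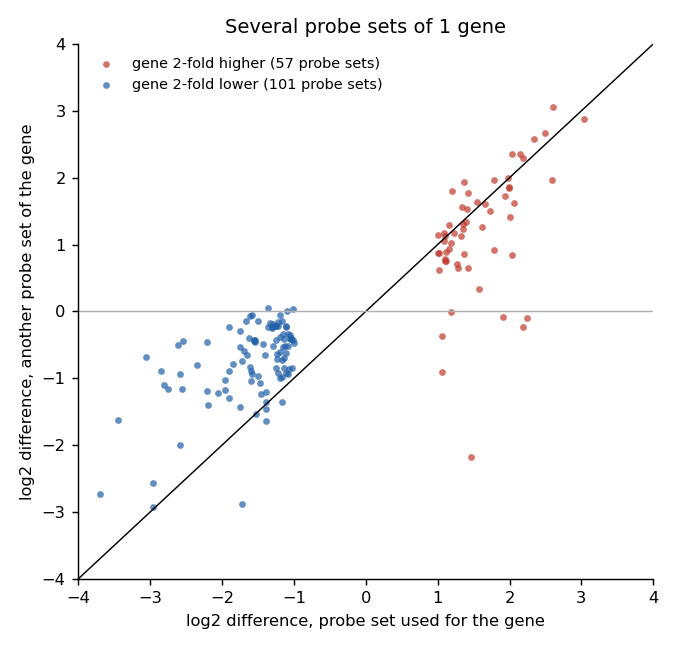
Difference (log2 of intensity + 16, formaldehyde minus control) on another probe set of a gene, past the level filter, against that on the probe set used, for genes called higher (red) or lower (blue). The line marks equal values; the blue points have a median of -0.64 on the vertical axis and -1.398 is the median of the probe sets used, and most lie above the line.

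The lists for neurons and muscle gave few calls, and those for glia, pharynx and distal tip cell shares of lower genes like that of the epidermis (14.3%), at 13.3%, 15.4% and 15.8%. These shares rest on 2 of 15, 4 of 26 and 3 of 19 genes, and ceh-22 counts for both pharynx and distal tip cell. Of 30 pan-neuronal genes 1 was lower, the synapse scaffold gene syd-2, and 4 lay above 0, with a median of -0.21. The neuronal genes ric-19 (-0.91), rab-3 (-0.64) and egl-3 (-0.56) stayed within 2-fold. rab-3, a vesicle protein, had 442, 273, 279, 279 and 247, with the control array above all 4 others. Cholinergic neurons had 1 of 18 lower, the regulator unc-3 (-1.17), GABA neurons 0 of 12, glutamate neurons 1 of 19, the chloride channel gene avr-14 (-1.05), and touch receptor neurons 0 of 17. Of 41 genes for cilia 1 was lower, the kinesin gene klp-11 (-1.13), and 0 lay above 0, but 11 of the 41 passed the level filter. Chemosensory signalling had 1 of 31 lower, the homeobox gene ttx-1 (-1.51). The other probe sets of syd-2 (-0.22), unc-3 (-0.01), avr-14 (-0.05), ttx-1 (-0.10) and klp-11 (-0.61, 0.02 and -0.72) were under the level filter. Of 21 monoamine genes 1 was higher, cat-4, with 496, 872, 872, 1103 and 1156 (1.13). cat-4 makes the biopterin cofactor of monoamine synthesis, which epidermis also uses, and 2 other genes of the list stood at 0.92 (ptps-1, of the same cofactor pathway) and 0.71 (bas-1, a decarboxylase). Glia had 2 of 15 lower, dyf-7 (-1.305) and mls-2 (-1.06). Another probe set past the level filter stood at -0.24 for dyf-7 and at -0.35 for mls-2.

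Body wall muscle had 1 of 43 genes higher and a median of 0.02. That gene, unc-52, which encodes perlecan of the muscle basement membrane, stood at 1.06 on the probe set used and at -0.90 and -0.37 on 2 others, so its direction was not settled. The troponin gene mup-2 had 1781, 2391, 2047, 3163 and 3201 (0.82) and the titin-like gene unc-22 244, 326, 279.6, 408 and 369 (0.70), both within 2-fold. The pharynx list had 4 of 26 genes lower and 1 higher. Beside ceh-22 these were ztf-11 (-1.31), ceh-34 (-1.005), the gland gene phat-5 (-1.199) and, on the higher side, the gland gene phat-4 (1.67). phat-4 had 211, 418, 256, 705 and 607 and phat-5 263, 109, 128, 106 and 92.9, so the 2 gland genes went apart on all exposed arrays. Distal tip cell genes had 3 of 19 lower, ceh-22, cki-1 and unc-6, a netrin with 596, 369, 479.5, 195 and 199 (-1.54). Vulva and uterus genes had 1 of 32 lower (cdh-3, -1.6000), the excretory canal 1 of 24 (sma-1) and coelomocytes 0 of 14. The basement membrane list had lam-3, a laminin, lower (-1.68) on the one of its 2 probe sets that passed the level filter.

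The germline outside sperm was close to control. Germline stem cell genes (39) and meiotic chromosome genes (39) had 0 members 2-fold away and medians of -0.03 and -0.01. Their ranges were -0.26 to 0.23 and -0.30 to 0.32, and all of them passed the level filter. Oocyte-to-embryo and polarity genes had 0 of 41 called and a median of -0.12, which turned above 0 with scaling on the poly-A spikes. Its lowest member was the caveolin gene cav-1, with 3033, 3386, 4057, 1560 and 1657 (-0.95).

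Genes that handle formaldehyde itself showed no member 2-fold away among 40, with a median of -0.03. adh-5, the glutathione-dependent formaldehyde dehydrogenase gene, had 377, 407, 368, 409 and 442 (0.11). The aldehyde dehydrogenase genes alh-1 and alh-9 had 3122, 3210, 3746, 2581 and 2596 (-0.27) and 468, 523, 397, 677 and 663 (0.52). The glutathione genes gcs-1, gss-1 and gsr-1 stood at -0.33, 0.03 and 0.15. Of the crosslink repair genes, fcd-2 had 311, 313, 317, 281 and 301 (-0.14), fan-1 354, 327, 323, 358 and 372 (0.01), xpf-1 644, 538, 568, 577 and 560.2 (-0.16) and the DNA-protein crosslink protease gene dvc-1 1317, 1313, 1177, 1359 and 1317 (0.04). The demethylase genes, whose reaction releases formaldehyde, were led by jmjd-3.1, with 77.2, 66.3, 74.4, 35 and 39.8 (-0.87), while lsd-1 and spr-5 stood at -0.03 and 0.01. The polymerase genes for damaged DNA, polq-1 (-0.41) and rev-3 (-0.40), were below control on all 4 exposed arrays. polq-1 had 1451, 1143, 1211, 1092 and 1168, and a second, dimmer probe set stood at -0.26.

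Lists of basic cell functions gave few calls. No member was 2-fold away among 33 nucleolus genes, 47 splicing genes, 36 translation factor genes, 33 aminoacyl-tRNA synthetase genes, 36 nuclear pore and lamina genes, 35 ubiquitin genes or 38 secretory pathway genes. The 75 ribosomal protein genes had 0 called, lay between -0.37 and 0.02 and had a median of -0.13, which was -0.01 with poly-A scaling. Among 34 chaperonin and co-chaperone genes 1 was higher, the BAG family gene unc-23, with 253, 363, 219, 707 and 729.9 (1.43) and 1.77 on another probe set. Of 40 autophagy and lysosome genes 1 was lower, the lipase gene lipl-4 (-1.21), and the median was -0.21. hlh-30, the regulator of lysosome and autophagy genes, stood at -0.91 and -0.71 on 2 probe sets and at -0.01 on the other.

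Of 31 targets of SKN-1, a factor of the response to reactive compounds, 2 were higher (6.45%) and 0 lower, and 22 (71.0%) lay above 0, with a median of 0.14. The 2 were the glutathione S-transferase genes gst-10 (1.67) and gst-5 (1.603). gst-4, often used as a reporter of that factor, had 85, 118.6, 88.2, 170.2 and 183 (0.88). Of 41 DAF-16 and dauer genes 3 were higher (7.32%) and 2 lower (4.88%), with 15 above 0. The metallothionein gene mtl-1 had 1840, 2049, 1974, 611 and 886 (-1.57), while the desaturase gene fat-7 had 740.5, 1338, 1029, 1820 and 2111 (1.28).

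Large receptor classes gave few calls. The 20 chemoreceptor classes held 1285 measured genes, of which 60 passed the level filter, 1 was higher and 1 was lower. F-box, BTB and MATH classes had 1 of 413 higher and 3 lower. The channel and receptor classes twk, lgc, acr and npr had 0 of 151 higher and 1 lower. Of the 37 classes with 40 or more genes, 18 had no member 2-fold away. Most genes of these receptor, F-box, BTB, MATH and channel classes were under the level filter.

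**Figure D5:**
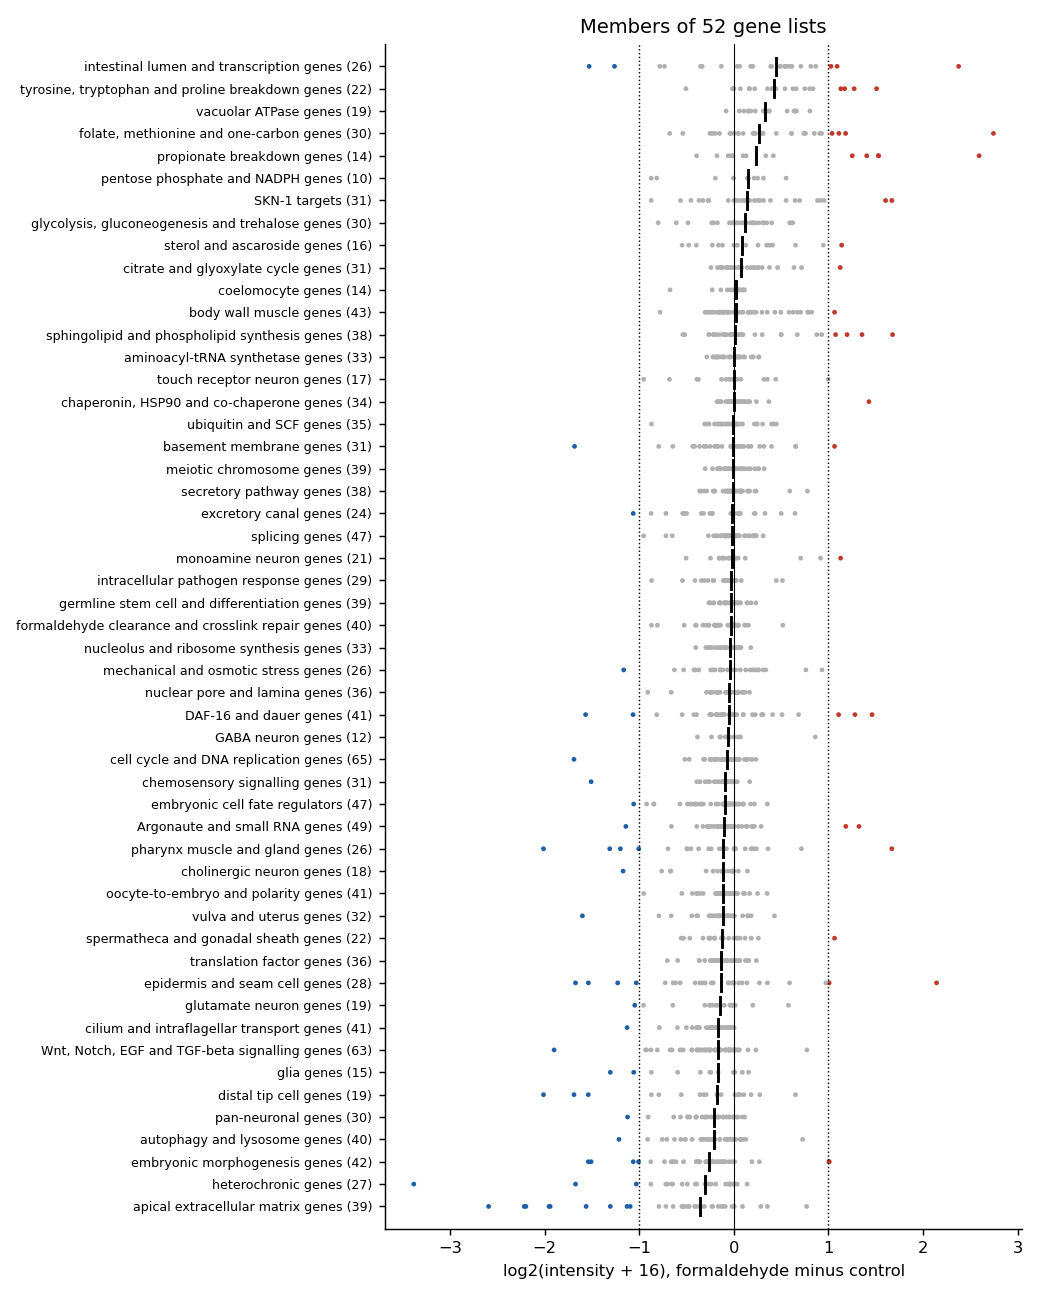
Difference (log2 of intensity + 16, formaldehyde minus control) of every measured member of the 52 gene lists, with the number measured in brackets, ordered by list median (black tick). Red and blue points are 2-fold higher and lower and dotted lines mark 2-fold; medians run from -0.36 for apical extracellular matrix genes to 0.44 for intestinal lumen genes.

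In all, 1629 of the 1750 listed genes were measured. Of the 52 lists, 18 had no member 2-fold away, and 2 had at least 20% of members 2-fold away in one direction, the apical extracellular matrix (9 of 39 lower) and propionate breakdown (5 of 14 higher). The lists were chosen with earlier results in view, so these counts describe the arrays and give no independent support.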

How the data were processed

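Transcript levels of whole nematodes were measured on 5 Affymetrix arrays, 1 per group, and the groups were taken from the treatment labels. The authors deposited a linear intensity for each of 22625 probe sets. MAS5, RMA and Affymetrix Expression Console 1.1 appear in the submitters' processing notes with no role for each, and the normalization between arrays is not stated there. The arrays had median intensities of 82.3 to 84.8. The number of arrays limits the precision.

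Genes were named from the platform annotation, updated through a RefSeq gene table (WBcel235). The annotation gave 1 gene to 20766 probe sets (20701 found in the table), several to 887 and none to 895, and 77 were control probe sets. Intensities were taken to log2(value + 16), which understates differences of dim genes. A gene took its probe set of highest mean level (17118 genes), and counts of genes used those whose mean log2 level reached the 40th percentile (6.05). Counts for classes and lists used all measured members. A difference of 2-fold was the rule of size, with no test.

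The 52 lists were written from general knowledge. The members and lists were chosen with earlier results of these data known. Named were the 40 genes with the largest difference each way past the filter, up to 6 members with the largest absolute difference of each class or list described, any gene for formaldehyde clearance and crosslink repair, and members of runs of at least 3 neighbouring genes. Other choices are marked in the text. Alternatives were no filter, the 60th percentile, 1.5-fold, pseudocounts 1 and 64, median centring, quantile normalization, scaling on 12 poly-A spike probe sets, averaging all probe sets of a gene and leaving out s and x probe sets. The steps were tested on simulated data. Python 3.11.15 with numpy 2.4.6, pandas 2.3.3 and matplotlib 3.10.9 was used.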

Additional observations from a re-analysis of the deposited data

How the results depend on the processing

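With no replicates, these settings show only what the processing changes. At 1.5-fold, 891 genes were higher, 660 lower, 25 classes and 14 lists had at least 20% of members past the threshold one way. With the filter at the 60th percentile 147 genes were lower and 5 lists passed that share, and with a pseudocount of 64 it was 144 genes and 1 list. With all probe sets of a gene averaged, 447 genes were higher, 163 were lower and 1 list passed. Without s and x probe sets 276 genes were higher, 2 classes and 4 lists passed. A class still needed at least 10 measured genes. The cause of these moves was not tested, beyond the fewer genes or probe sets that enter some settings. Median centring, quantile normalization, scaling on poly-A spikes, no filter and a pseudocount of 1 left the 4 counts of genes, classes and lists within 1.5 times. Scaling on poly-A spikes gave 558 higher and 184 lower genes and moved the median of all genes from -0.01 to 0.07. Of 53 medians (the 52 lists and the ribosomal proteins), 20 changed sign under it, none of them larger than 0.12 in size, and 9 did under centring. Of 270 named genes that were 2-fold away, 60 were within 2-fold at a pseudocount of 64, 31 with the mean of probe sets and 15 with poly-A scaling. Without s and x probe sets 85 of the 270 had no value and 9 were within 2-fold. Only unc-52 reversed, to -0.069 with the mean of probe sets and -0.90 without s and x probe sets. Dim genes are limited by signal over background: 6847 of the 17118 genes were below the level filter. No paired analysis was possible because each group has 1 array.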
